A study of Mus musculus with 12 samples.

Results

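Dendritic cells (DCs) grown from bone marrow of mice without interleukin 2 (IL-2) were compared with those of wild-type mice at rest, before any stimulus. The comparison used 6 of the study's 12 arrays, chosen by their labels: 3 untreated knockout arrays and 3 untreated wild-type arrays. The other 6 arrays carry the same genotypes after 6 h with curdlan, a beta-glucan bound by Dectin-1. The strain is given as B6.129P2-Il2tm1Hor/J throughout, the name of a germline Il2 disruption carried on a C57BL/6 background. Because the wild-type arrays bear it as well, the genotype label was used to tell the groups apart. All cells were cultured for 7 days in granulocyte-macrophage colony-stimulating factor (GM-CSF, 200 ng/ml), taken from the suspension, and selected with beads that bind CD11c, to a purity that the labels give as above 95%. Such cultures are called GM-DCs. The knockout is a germline disruption, so the design does not separate an effect in the DC from one in its precursors. The labels do not say that replicates came from separate animals, and the p-values therefore measure only the spread between these samples.

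IL-2 is a growth factor best known from T cells, and DCs make it for a short time after microbial stimuli, Dectin-1 ligands among them. Its receptor joins a private alpha chain (Il2ra, CD25) to a beta chain (Il2rb) and a gamma chain shared with other cytokines (Il2rg), and signals through JAK kinases to the transcription factor STAT5, which in turn raises Il2ra. GM-CSF, on which these cultures depend, also signals through STAT5. GM-DC cultures hold cells that resemble DCs and cells that resemble macrophages, and their precursors divide before they mature.

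The values are log2 signals of Affymetrix Mouse Gene 1.0 ST arrays, and a difference of 1 is a doubling. A gene is said to have passed, risen or fallen when limma's moderated test, fitted to all 12 arrays, gave an adjusted p (Benjamini-Hochberg over 19937 genes) under 0.05. The DC integrin gene Itgax, which encodes CD11c, lay between 12.87 and 13.08 on the 6 arrays, and the class II gene H2-Ab1 between 13.21 and 13.37. The macrophage genes Adgre1 (11.94 to 12.30) and Csf1r (12.41 to 12.55) were also high, while the defining T-cell gene Cd3d (4.63 to 4.98), the B-cell genes Cd79a (4.50 to 4.61) and Ms4a1 (4.31 to 4.51), the neutrophil gene Ly6g (4.07 to 4.56) and the natural killer gene Ncr1 (4.50 to 4.67) lay below the lower quartile of all gene values, 5.37. Most other markers of these cells did not. On average, 7 of 22 tested T-cell list genes and 8 of 23 of the B-cell and plasma-cell list lay below that quartile. So did 6 of 25 of the neutrophil list and 8 of 19 of the natural killer list. The low genes alone therefore do not settle which cells were present.

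The sex-linked genes divided the arrays in a way that crossed the genotypes. Xist, which is transcribed from the inactive X chromosome, read 5.46, 12.57 and 12.65 on wild-type arrays 1, 2 and 3 and 12.69, 12.14 and 4.91 on knockout arrays 1, 2 and 3. The Y-linked gene Eif2s3y read 9.67, 4.15 and 4.34 in wild-type cells and 4.41, 8.72 and 9.99 in knockout cells. Knockout array 2 was therefore high in both, and the curdlan arrays of the same numbers gave the same picture. Of the 57 genes named below that passed, 16 still passed without wild-type array 2, 27 without knockout array 1 and 32 without wild-type array 3. Without knockout array 2, 35 of the 57 did not pass. The 22 that passed without it were Adam23, Alox15, Cd209a, Cetn4, Dpp4, Efr3b, Ehf, Fscn1, Ifitm6, Il2ra, Jag1, Nuf2, Oasl2, Phf11d, Pmaip1, Scarf1, Slamf1, Spry1, Tmeff1, Tyms, Zeb1 and Zfp979.

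The targeted gene gave no check of the labels at rest. Il2 read 5.56, 5.37 and 5.53 on the wild-type arrays and 6.04, 5.88 and 5.77 on the knockout arrays. The knockout arrays lay above the wild-type arrays, at a level close to the lower quartile of all genes, and the difference of 0.41 ± 0.20 (SE) did not pass (limma, adjusted p 0.524). The sources used here do not say how the probes lie relative to the disrupted part. On the curdlan arrays the knockout gave -1.48 for Il2 (adjusted p 0.0114), the direction of the labels.

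In all, 283 of 19937 genes passed (1.42%), of which 46 were higher in the knockout (0.231%) and 237 lower (1.19%). The genes that fell included the DC lectin genes Cd209a and Cd209c, the IL-2 receptor gene Il2ra, the DC protease gene Dpp4, the Ets factor genes Spib and Ehf, and a large block of mitosis genes. The genes that rose moved less and included the scavenger receptor gene Scarf1, the Notch ligand gene Jag1 and interferon-stimulated genes. Of the 283, 85 differed by more than 2-fold, 83 of them lower, and the largest was Cd209a at 5.47-fold. An unadjusted limma p under 0.05 was reached by 2114 of 19937 genes, the base for the unadjusted counts of lists below. The median difference of all genes was 0.01. The difference largest in size over all genes, that of Retnla, a gene of alternatively activated macrophages, did not pass (-2.89, adjusted p 0.68): its values of 6.75, 10.06 and 11.15 in wild-type cells and 5.02, 4.33 and 9.95 in knockout cells overlapped. Retnla was named after its values were seen.

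**Figure D1:**
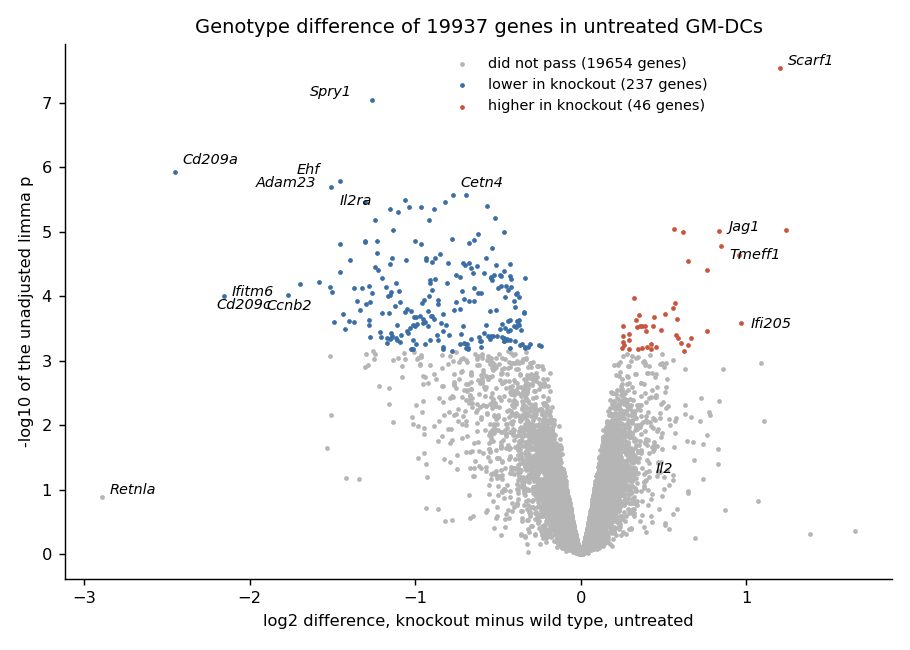
Each point is 1 of 19937 genes, with the log2 difference between 3 untreated knockout and 3 untreated wild-type arrays on the x axis and -log10 of the unadjusted limma p on the y axis; blue genes were lower and red genes higher in the knockout at an adjusted p under 0.05. Blue points (237) outnumber red points (46) and reach further from 0, with Cd209a at -2.45, while the red points end at 1.24 (Gm4951) and 1.21 (Scarf1); the grey point farthest left is Retnla at -2.89.

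The count moved with the arrays and the model. With the replicate number as a block, which the labels share between genotypes, 699 genes passed (145 higher, 554 lower), and all 283 were among them. The labels do not say that arrays of equal number belong together, and numbers 1 and 3 joined arrays with unlike Xist levels. After each array was centred on its own median, which shifted the median difference of all genes to 0.06, 269 genes passed, and the split was 95 higher and 174 lower in place of 46 and 237, so that the share that was lower went from 83.7% to 64.7%. When single arrays were left out, 447 genes passed without wild-type array 1, 52 without wild-type array 2, 134 without wild-type array 3, 111 without knockout array 1, 81 without knockout array 2 and 166 without curdlan-treated knockout array 1. The untreated and the curdlan array of a genotype and number were also left out together, here called a pair, though the labels do not say that they share a culture. Then 608 passed without wild-type pair 1, 122 without wild-type pair 2, 78 without wild-type pair 3, 60 without knockout pair 1 and 9 without knockout pair 2. A fit with the level of the Y-linked genes as a covariate gave 164 genes (19 higher, 145 lower), 158 of them among the 283. Adam23, Scarf1, Spry1 and the predicted gene Gm4951 passed in all 18 fits that left out an array or a pair and in all 30 alternatives.

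Cd209a gave the largest fall among the genes that passed, and 2 of its relatives fell too. Cd209a, a mouse relative of the human lectin DC-SIGN that binds sugars on microbes, read 11.05, 11.53 and 10.83 on the wild-type arrays and 9.38, 8.35 and 8.33 on the knockout arrays. The groups did not overlap, and knockout array 1 lay above the other knockout arrays. Cd209a fell by 2.45 ± 0.27 (SE, limma adjusted p 0.00588), and its adjusted p was 0.0516 without knockout pair 2. Cd209c fell from 8.81, 9.57 and 8.75 to 7.93, 7.34 and 6.56 (-1.77, adjusted p 0.0176), again with no overlap. Cd209d, lower in level, fell by 0.72 (adjusted p 0.0168). Without wild-type array 2, Cd209c (adjusted p 0.0936) and Cd209d (0.0757) no longer passed, nor did they without knockout array 2 (0.0664 and 0.0776). Over the 18 fits that left out an array or a pair, Cd209c lost its call in 5 and Cd209d in 4. The genes are near copies of each other in 1 cluster on chromosome 8, and probes of a copy could read another.

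The rest of the C-type lectin and uptake receptor list went the other way or did not pass. Of its 29 tested members 3 fell, the Cd209 genes, and 1 rose, beside 1.19% and 0.231% of all genes, and the median difference of the list was 0.10. With the replicate block 5 of the list rose and 4 fell. Scarf1, a scavenger receptor that takes up modified lipoproteins and dying cells, read 8.26, 7.99 and 8.17 in wild-type cells and 9.20, 9.35 and 9.49 in knockout cells. All knockout arrays lay above all wild-type arrays, and its adjusted p, 0.000587 (1.21 ± 0.09, SE), was the smallest of all genes. Clec7a, which encodes Dectin-1, read 12.54, 12.50 and 12.54 against 12.61, 12.72 and 12.67 and did not pass (0.14, adjusted p 0.379).

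Dpp4 fell with Cd209a, while other DC identity genes did not pass. Dpp4, the surface protease CD26, read 9.47, 10.24 and 10.18 in wild-type cells and 8.22, 8.70 and 8.61 in knockout cells, with no overlap (-1.45 ± 0.23, SE, limma adjusted p 0.0134). Dpp4 and Cd209a were the 2 of 26 tested members of the conventional DC list that passed, beside 1.42% of all genes. Of the 26, 19 were negative, and the median was -0.18. Itgae (CD103, an integrin of a DC subset) gave -1.30 with an adjusted p of 0.053, and its knockout arrays lay below its wild-type arrays; with the replicate block its adjusted p was 0.0117. Itgax (0.08), H2-Ab1 (-0.01), the DC transcription factor gene Irf4 (-0.12) and Clec9a (0.10) did not pass. In bulk samples, fewer cells of a type and less RNA per cell cannot be told apart. Dpp4 did not pass without wild-type array 2 (adjusted p 0.0748) or knockout array 1 (0.051), and each of these fits left 1 call in the list, where the replicate block gave 6. Over the 18 fits that left out an array or a pair, Dpp4 lost its call in 6.

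Among 22 tested receptor and signalling genes of the IL-2 and common gamma chain list, 1 fell, Il2ra, and 0 rose. Of all genes, 1.19% fell and 0.231% rose. Il2ra read 11.83, 11.99 and 11.73 on the wild-type arrays and 10.91, 10.71 and 10.48 on the knockout arrays. The groups did not overlap, and Il2ra fell by 1.15 ± 0.14 (SE, 2.22-fold, limma adjusted p 0.00588); without knockout pair 2 its adjusted p was 0.0516. The beta chain gene Il2rb, at a low level (4.99 to 5.24 over the 6 arrays), gave 0.14 (adjusted p 0.507), and Il15ra, the private receptor chain of the sister cytokine IL-15, gave 0.05 (adjusted p 0.984). Il2rg is not named in the probe annotation used here and was not tested.  In the list of STAT5-induced genes, 2 of 21 fell, Il2ra and Dusp5, beside 1.19% of all genes, and the list's median was 0.00. Dusp5, a phosphatase that acts on ERK kinases, gave -0.57 (limma adjusted p 0.0312). It was not past the threshold in 9 of the 18 fits that left out an array or a pair. The GM-CSF receptor genes Csf2ra (0.07, adjusted p 0.807) and Csf2rb (0.04, adjusted p 0.916) did not pass.

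**Figure D2:**
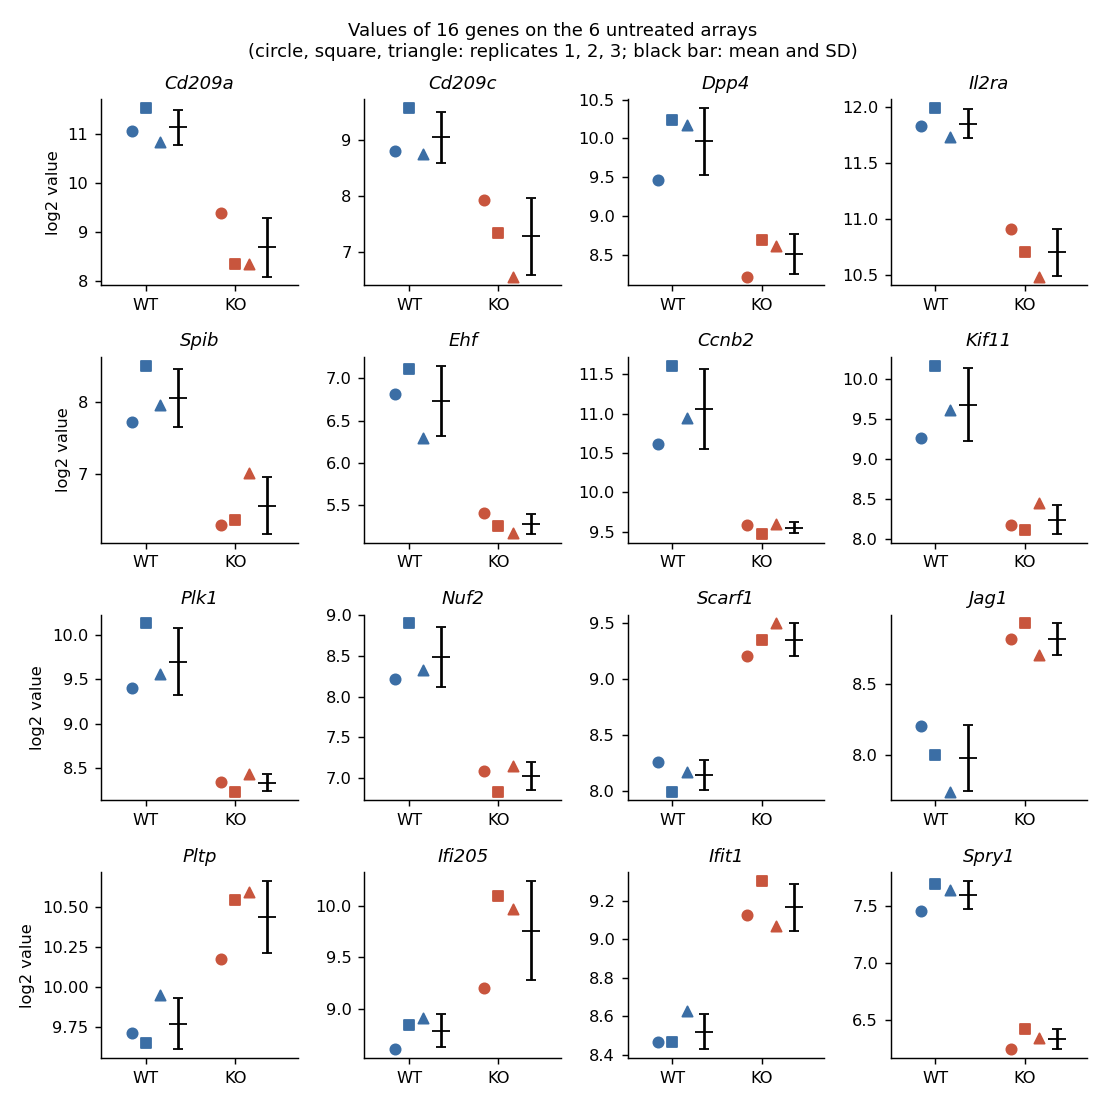
Log2 values (y axis, each panel on its own range) of 16 genes on the 3 untreated wild-type (WT, blue) and 3 untreated knockout (KO, red) arrays; symbols mark the replicate and the black bars give mean and SD. In each panel the genotypes do not overlap, from Cd209a (wild type 10.83 to 11.53, knockout 8.33 to 9.38) to Spry1 (7.46 to 7.69 and 6.24 to 6.42), and wild-type array 2 is the highest in Ccnb2, Kif11, Plk1 and Nuf2.

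Transcription factors of the Ets family and of lineage choice were lower in part. Spib, an Ets factor known from B cells and plasmacytoid DCs, read 7.72, 8.52 and 7.96 in wild-type cells and 6.28, 6.35 and 7.00 in knockout cells, with knockout array 3 nearest to the wild type (-1.52 ± 0.25, SE, limma adjusted p 0.0159). Ehf, an Ets factor best known from epithelia, read 6.81, 7.10 and 6.29 against 5.41, 5.26 and 5.17 (-1.46 ± 0.16, SE, adjusted p 0.00588). The knockout values of Ehf lay near the lower quartile of all genes. Zeb1, a zinc finger repressor, fell by 0.85 (adjusted p 0.0113). These were the 3 of 36 tested members of the list that passed, all lower, where 1.19% of all genes fell. The median of the list was -0.05. Spib did not pass without wild-type array 2 (adjusted p 0.0787), knockout array 1 (0.0658) or knockout array 2 (0.071), and Ehf (0.0516) and Zeb1 (0.0528) did not without knockout pair 2. Over the 18 fits that left out an array or a pair, the call was lost in 6 for Spib, 1 for Ehf and 3 for Zeb1.

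The remaining large falls came from several families. Ifitm6, a membrane protein gene of the interferon-induced transmembrane family with high levels in neutrophils and monocytes, read 8.79, 8.44 and 8.08 against 6.98, 5.31 and 6.56 (-2.15 ± 0.37, SE, limma adjusted p 0.018), with knockout array 2 the lowest. It was the only 1 of 25 tested members of the neutrophil list that passed (2 fell with the replicate block), beside 1.42% of all genes. The list's summed level was alike in the genotypes (13.41 to 13.50 and 13.40 to 13.49 on the log2 scale). Adam23, a cell-surface protein of the disintegrin family, read 9.98, 10.59 and 10.18 against 8.90, 8.69 and 8.64 (-1.51 ± 0.17, SE, adjusted p 0.00588). Tespa1, an adaptor of antigen receptor signalling in T cells, gave -1.70 (adjusted p 0.0156), and Treml4, a myeloid receptor that binds dying cells, gave -1.49 (adjusted p 0.0305). Gimap5, a GTPase gene of lymphocytes, gave -1.58 (adjusted p 0.0149), with wild-type values of 5.34, 6.61 and 6.34 and knockout values of 4.42 to 4.67, under the lower quartile of all genes. Ifitm6 (adjusted p 0.0933) and Tespa1 (0.0897) did not pass without wild-type array 2, and Tespa1 did not without knockout array 2 (0.0707). Over the 18 fits that left out an array or a pair, the call was lost in 3 for Ifitm6, 4 for Tespa1, 9 for Treml4 and 8 for Gimap5.

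Genes of mitosis were lower as a block. All 33 tested members of the list had a negative difference, 22 fell and 0 rose, where 1.19% of all genes fell. In 32 of the 33 the 3 knockout arrays lay below the 3 wild-type arrays, which held for 7.88% of all genes. The median difference was -1.15, from -1.50 to -0.54, and the mean level of the list was 8.77, 9.47 and 8.95 on the wild-type arrays against 7.95, 7.86 and 8.15 on the knockout arrays. Wild-type array 2 was the highest of the 6 and the knockout arrays were close together. Ccnb2, a B-type cyclin that partners CDK1 in mitosis, read 10.61, 11.61 and 10.95 against 9.59, 9.47 and 9.60 (-1.50 ± 0.26, SE, limma adjusted p 0.0173). Kif11, the motor that pushes spindle poles apart, read 9.26, 10.17 and 9.61 against 8.17, 8.11 and 8.45 (-1.44, adjusted p 0.0258). Nuf2 of the kinetochore gave -1.46 (adjusted p 0.00888) and the mitotic kinase gene Plk1 gave -1.37 (adjusted p 0.0161). Cdc20, an activator of the anaphase-promoting complex, read 7.70, 8.48 and 7.91 against 6.88, 6.98 and 6.91. Outside the list, the kinetochore scaffold gene Knl1 (-1.40, adjusted p 0.03) and the DNA glycosylase gene Neil3 (-1.42, adjusted p 0.0337) were among the 15 largest falls. Over the 18 fits that left out an array or a pair, the call was lost in 7 for Ccnb2, 8 for Kif11, 2 for Nuf2, 7 for Plk1, 9 for Knl1 and 12 for Neil3.

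The median of the mitosis list lay between -1.29 and -0.92 over the alternatives, while the number of calls moved widely. The number that fell was 3 when the 6 untreated arrays were fitted alone, 31 with the replicate block and 13 with the Y-linked level as a covariate. It was 28 without wild-type array 1, 2 without wild-type array 2, 9 without wild-type array 3, 3 without knockout array 1, 1 without knockout array 2, and 16 without knockout array 3. It was 13 without curdlan-treated knockout array 1, and, with a pair left out, 2 without wild-type pair 3, 1 without knockout pair 1, 0 without knockout pair 2 and 8 without knockout pair 3. Markers of stem and progenitor cells leaned lower by less: 21 of 25 tested were negative, 1 fell (beside 1.19% of all genes) and the median was -0.06. Their summed level was 14.15, 14.03 and 13.89 on the wild-type arrays and 13.85, 13.46 and 13.49 on the knockout arrays. In the mitosis list wild-type array 1 was the lowest of the wild-type arrays, while in the progenitor list it was the highest. Of that list, Cd34 read 9.99, 10.02 and 9.42 against 8.93, 7.62 and 8.33 (-1.51, limma adjusted p 0.0551, and 0.0184 with the replicate block, under which 5 of the list fell), and Mpo (6.00 to 6.17) and Ms4a3 gave -0.02 and -0.01. The part of progenitors in the mitosis result was not tested.

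S-phase genes were lower by less. The counts that follow stand beside 1.19% of all genes that fell. Of 29 tested members 28 were negative and 4 fell, with a median of -0.45: Prim1, a DNA primase subunit (-0.83, adjusted p 0.0258), Tyms, which makes thymidylate (8.91, 9.07 and 8.97 against 8.26, 8.01 and 8.35; -0.78, limma adjusted p 0.00888), Uhrf1, which keeps DNA methylation through replication (-0.77, adjusted p 0.0241), and Ccne1, a cyclin of the entry into S phase (-0.43, adjusted p 0.047). The ribonucleotide reductase gene Rrm2 gave -0.96 and did not pass (adjusted p 0.0793, and 0.0188 with the replicate block). Canonical histone genes, grouped by symbol after their values were seen, gave 12 falls among 30 tested, 26 negative and a median of -0.35. Over the 18 fits, Prim1 and Uhrf1 each lost their call in 8, Ccne1 in 15 and Tyms in 1. S-phase calls ranged from 0 without knockout pair 2 to 12 with the replicate block. Birc5 (survivin), a mitosis gene that also counts as an inhibitor of apoptosis, fell by 1.15 (adjusted p 0.017, lost in 7 of the 18 fits); it was the only 1 of 19 tested anti-apoptotic genes that passed.

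Of 28 tested pro-apoptotic genes 1 fell and 0 rose, beside 1.19% and 0.231% of all genes, and the median of the list was -0.01. Pmaip1 (Noxa), a BH3-only protein that binds MCL1, read 9.04, 9.32 and 9.28 in wild-type cells and 8.67, 8.75 and 8.58 in knockout cells, with no overlap (-0.55 ± 0.09, SE, limma adjusted p 0.014). Pmaip1 was also the only 1 of 18 tested p53 target genes that passed. Bmf (-0.53, adjusted p 0.0643, and 0.00824 with the replicate block), Bcl2l11, which encodes Bim (-0.10, adjusted p 0.901), and Fas (-0.04, adjusted p 0.977) did not pass. Pmaip1 did not pass without wild-type array 2 (adjusted p 0.0814) or wild-type array 3 (0.0559). Its call was lost in 6 of the 18 fits that left out an array or a pair.

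**Figure D3:**
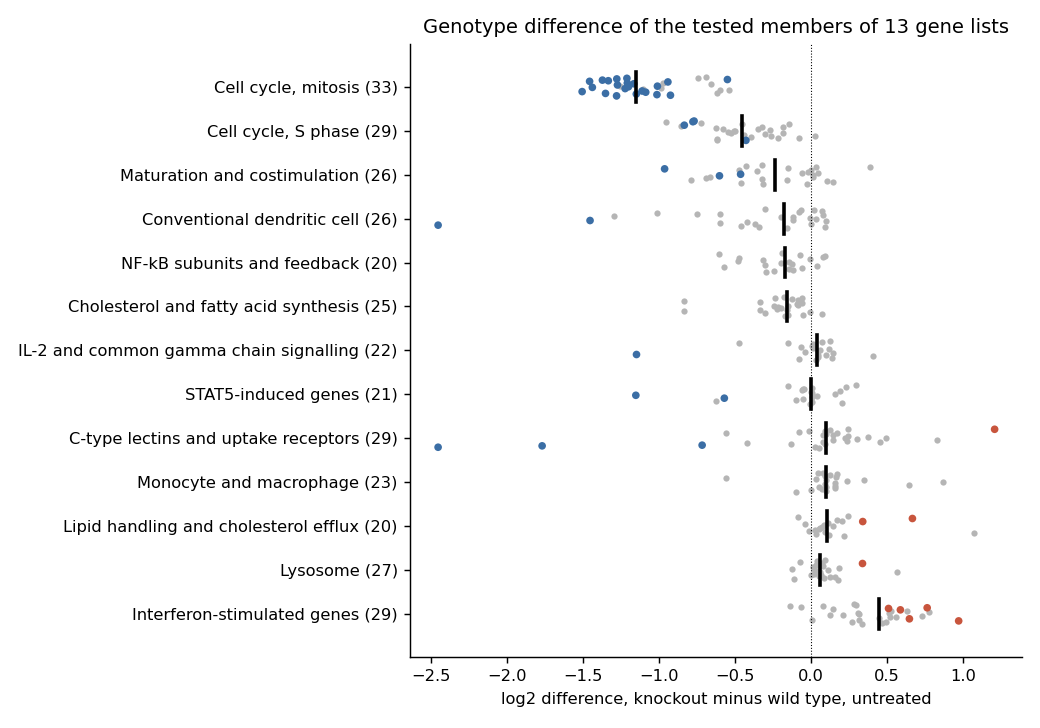
Each point is a tested member of 1 of 13 gene lists (number tested in brackets), placed by its log2 difference, knockout minus wild type, untreated; coloured points passed (blue lower, red higher), grey points did not, and black bars are medians. The mitosis list lies wholly below 0 (median -1.15), the interferon-stimulated list mostly above 0 (median 0.44), the S-phase list almost wholly below 0 (median -0.45), and the medians of the remaining lists lie between -0.24 and 0.10.

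Maturation genes were lower in part. Of 26 tested members 3 fell, where 1.19% of all genes fell, and 18 were negative, with a median of -0.24. Slamf1, a self-binding receptor of activated leukocytes, read 7.68, 7.58 and 7.56 against 6.46, 6.54 and 6.92 (-0.96 ± 0.12, SE, limma adjusted p 0.00588). Fscn1, the actin bundler of mature DC dendrites, gave -0.60 (adjusted p 0.0406), and Icosl, a costimulatory ligand for T cells, gave -0.46 (adjusted p 0.0395). Slamf1 lost its call without knockout pair 2 (adjusted p 0.0516), Fscn1 in 13 and Icosl in 12 of the 18 fits. H2-Oa, which restrains peptide loading on class II, fell by 1.04 (adjusted p 0.0367) and was the only 1 of 15 tested class II genes that passed; its call was lost in 13 of the 18 fits, and with the replicate block 3 class II genes passed. Among NF-kB genes 0 of 20 passed (limma; 7 at an unadjusted p under 0.05), 17 were negative, and Traf1 (-0.60, adjusted p 0.0773) and Map3k14 (-0.57, adjusted p 0.0993) were the largest (0.0345 and 0.0309 with the replicate block). Among the 25 tested genes of cholesterol and fatty acid synthesis 0 passed (limma; 11 at an unadjusted p under 0.05) and 24 were negative (median -0.16), led by Fads2 at -0.84 (adjusted p 0.0658, and 0.0102 with the replicate block). With the replicate block in all 12 arrays, 2 genes of each of these lists passed, all lower. The maturation list had 1 call without wild-type array 2, wild-type array 3 or knockout array 1, and it and the conventional DC list had 0 without knockout pair 2.

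Interferon-stimulated genes were higher. Of 29 tested members 27 were positive, 5 rose and 0 fell, where 0.231% of all genes rose, and the knockout arrays lay above the wild-type arrays in 19, which held for 7.55% of all genes. The median was 0.44. The mean level of the list was 8.87, 8.89 and 8.90 on the wild-type arrays and 9.19, 9.49 and 9.19 on the knockout arrays, with knockout array 2 the highest. Ifi205, a DNA-binding protein of the p200 family, read 8.61, 8.85 and 8.92 against 9.21, 10.10 and 9.97 (0.97 ± 0.19, SE, limma adjusted p 0.0306). Ifit1, which binds foreign RNA caps, read 8.47, 8.47 and 8.63 against 9.13, 9.30 and 9.07 (0.65, adjusted p 0.0437). Rtp4 (0.76), Oasl2 (0.59) and Rsad2 (viperin, 0.51) also rose, and among the 15 largest rises stood Phf11d (0.96, adjusted p 0.0113), Slfn8 (8.32, 8.26 and 8.26 against 9.02, 9.22 and 8.88; 0.76, adjusted p 0.0128) and the AP-1 family factor gene Batf2 (0.62, adjusted p 0.0493). Single calls were lost in 11 of the 18 fits that left out an array or a pair for Ifi205, 14 for Ifit1, 10 for Rtp4, 13 for Oasl2, 4 for Phf11d, 6 for Slfn8 and 15 for Batf2. The median of the list stayed between 0.32 and 0.50 over the alternatives. The number of members that rose was 1 when the 6 untreated arrays were fitted alone and 8 with the replicate block. It was 2 without wild-type array 1, and 0 without wild-type array 2 or 3. It was 2, 1 and 3 without knockout arrays 1, 2 and 3. It was 3, 2 and 1 without curdlan arrays wild type 2, wild type 3 and knockout 1, and 2, 0, 0, 2 and 0 without wild-type pairs 1, 2 and 3 and knockout pairs 1 and 2. With the Y-linked level as a covariate 0 rose, and the median was 0.46.

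Promoters of genes from these opposing groups are shown, each with only the motifs searched for its own group marked. They are from RefSeq (GRCm38.p6), 150 bases up to the base before the annotated start, 5′ to 3′ on the strand of the gene, and the genes were picked after their values were seen. In the mitosis genes, capitals mark CCAAT (the box bound by NF-Y) and TTTGAA (the core of the cell cycle genes homology region, CHR), on either strand. The TTTGAA copies of Ccnb2 begin at -167 and 5 relative to the annotated start, outside the bases shown:
Ccnb2, chr9:70421555-70421704, minus strand: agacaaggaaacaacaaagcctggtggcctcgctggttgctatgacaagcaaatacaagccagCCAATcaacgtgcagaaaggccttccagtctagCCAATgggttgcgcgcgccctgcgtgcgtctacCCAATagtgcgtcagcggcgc
Kif11, chr19:37376232-37376381, plus strand: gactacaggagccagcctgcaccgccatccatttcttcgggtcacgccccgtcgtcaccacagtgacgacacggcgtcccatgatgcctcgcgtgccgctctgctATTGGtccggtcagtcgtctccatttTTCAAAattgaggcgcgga
Cdc20, chr4:118437344-118437493, minus strand: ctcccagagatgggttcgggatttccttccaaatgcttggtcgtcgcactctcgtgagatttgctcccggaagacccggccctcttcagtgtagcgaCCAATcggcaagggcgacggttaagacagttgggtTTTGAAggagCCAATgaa
The interferon group shown includes Slfn8, which is from the 15 largest rises and not among the interferon-list genes that rose. Capitals there mark only GAAANNGAAA, the core of the interferon-stimulated response element, on either strand, and a TTTGAA match of Slfn8 that begins at -111 is left in lower case:
Ifit1, chr19:34640739-34640888, plus strand: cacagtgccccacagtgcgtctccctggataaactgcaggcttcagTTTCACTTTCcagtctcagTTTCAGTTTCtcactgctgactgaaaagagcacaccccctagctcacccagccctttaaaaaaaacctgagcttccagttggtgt
Ifi205, chr1:174031756-174031905, minus strand: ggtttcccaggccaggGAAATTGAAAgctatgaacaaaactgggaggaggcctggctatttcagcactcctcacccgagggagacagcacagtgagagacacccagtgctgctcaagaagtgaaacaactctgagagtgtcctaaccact
Slfn8, chr11:83020811-83020960, minus strand: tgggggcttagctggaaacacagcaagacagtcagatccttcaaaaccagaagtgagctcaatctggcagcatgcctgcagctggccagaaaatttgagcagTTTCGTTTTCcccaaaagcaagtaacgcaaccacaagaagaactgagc
In the 300 bases from 250 before to 50 after the start, CCAAT was found in 14 and TTTGAA in 14 of the 19 mitosis-list genes that fell and had a promoter in the table (73.7% each), beside 37.9% and 18.1% of 27025 gene promoters. GAAANNGAAA was found in 3 of 4 such promoters of interferon-list genes that rose (75.0%: Ifit1, Ifi205 and Rsad2). It was found in 3 of 11 promoters of the 15 largest rises (27.3%) and in 3.49% of all promoters. The STAT palindrome TTCNNNGAA was found in 2 of the 13 promoters of the largest falls (15.4%, Ifitm6 and Knl1), in 0 of 11 of the largest rises and in 8.47% of all promoters, and the window of Il2ra held none. Motifs could overlap, both strands were searched, and these shares are descriptions without a test.

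Further rises came from genes of adhesion, lipid transfer and signalling. The list counts here stand beside 0.231% of all genes that rose. Jag1, a ligand of Notch receptors, ran from 7.74 to 8.20 in wild-type cells and read 8.82, 8.93 and 8.70 in knockout cells (0.83 ± 0.11, SE, limma adjusted p 0.008). Pltp, which moves phospholipid between lipoproteins, gave 0.67 (adjusted p 0.0392) and Npc2, which carries cholesterol out of lysosomes, 0.34 (adjusted p 0.0313); they were the 2 of 20 tested lipid-handling genes that passed, and 17 of the 20 were positive (median 0.10). Tmeff1, a transmembrane protein with follistatin domains, gave 0.84 (adjusted p 0.00918), Efr3b, which holds a lipid kinase at the membrane, 0.61 (adjusted p 0.008), Sphk1, which makes sphingosine-1-phosphate, 0.61 (adjusted p 0.0424), the adhesion gene Clmp 0.58 (adjusted p 0.0291) and the zinc finger gene Zfp979, at a low level of 4.40 to 5.30, 0.65 (adjusted p 0.0117). Mitf, a driver of lysosome genes, rose by 0.33 (adjusted p 0.0293) as the only 1 of 27 tested lysosome genes (2 with the replicate block), of which 23 were positive (median 0.06). Without knockout pair 2, Jag1 (adjusted p 0.0588), Tmeff1 (0.069) and Efr3b (0.0528) did not pass, and Pltp, Npc2 and Sphk1 lost their call in 12, 12 and 15 of the 18 fits, Clmp in 11, Mitf in 8 and Zfp979 in 2.

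Lists of sensing, inflammation and stress had few or no members past the threshold. Of all genes 1.42% passed, and 2114 of 19937 reached an unadjusted limma p under 0.05. In the Dectin-1, Syk and Card9 list, the machinery that curdlan engages, 0 of 20 passed (limma; 2 at an unadjusted p under 0.05) and differences ran from -0.27 to 0.14. Among Toll-like receptors and adaptors 0 of 23 passed (5 unadjusted), with Tlr9, a sensor of DNA, at -0.69 (adjusted p 0.134) and Tlr2, a sensor of lipopeptides, at 0.48 (adjusted p 0.409). Inflammatory cytokines (0 of 27, 3 unadjusted), chemokines (0 of 26, 4 unadjusted), class I genes (0 of 17, 0 unadjusted) and interferon-gamma induced GTPases (0 of 13, 5 unadjusted) had none. Oxidative phosphorylation genes (0 of 27, 0 unadjusted) ran from -0.08 to 0.10, and the glucose transporter gene Slc2a3 (-0.53, adjusted p 0.0142) was the only 1 of 26 glycolysis and hypoxia genes that passed. Slc7a2, a carrier of arginine, rose by 0.25 (adjusted p 0.047), a call lost in 15 of the 18 fits that left out an array or a pair; that of Slc2a3 was lost in 7. Of genes that mark handling stress, AP-1 and immediate early genes (0 of 25, 3 unadjusted) had a median of 0.05 and heat shock genes (0 of 18, 3 unadjusted) a median of 0.00; ribosomal protein genes (0 of 22, 1 unadjusted) had a median of -0.06. With the replicate block some of these lists gained calls. Tlr9 (adjusted p 0.0247), the cytokine gene Ltb (-0.71, 0.00172) and the orphan receptor gene Nr4a3 of the immediate early list (-1.16, 0.0253) then fell, and Tlr2 (0.0176) and the chemokine genes Cxcl3 (0.66, 0.00507) and Pf4 (0.68, 0.0266) rose. So did Fos and Jun of the immediate early list (0.29 and 0.27), and 2 genes of the chemokine receptor and adhesion list fell.

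Markers of monocytes and macrophages leaned upward beside the falls of DC genes: 20 of 23 tested were positive (median 0.10), 0 passed (limma; 5 at an unadjusted p under 0.05), and their summed level, the log2 of the summed unlogged signals, was 15.98 to 16.11 in wild-type cells and 16.11 to 16.22 in knockout cells. The summed level of the conventional DC list was 16.11 to 16.20 and 15.98 to 16.08. The eosinophil list held Alox15, a lipoxygenase that macrophages also make, which fell by 1.00 (limma adjusted p 0.00888), while its defining genes Epx (4.75 to 5.04) and Prg2 (5.04 to 5.44) were near the lower quartile of all genes. The summed level of that list was 12.84 to 13.06 in wild-type cells and 12.45 to 12.78 in knockout cells. Its median difference over 9 tested members was -0.14. The call of Alox15 was lost in 2 of the 18 fits that left out an array or a pair. The natural killer list held Klrd1, a lectin-like receptor chain, which fell by 0.53 (adjusted p 0.0383) at levels of 4.47 to 5.30, below the lower quartile, a call lost in 11 of the 18 fits. T-cell, mast-cell, erythroid and stromal lists had 0 members past the threshold (limma; 3 of 22, 5 of 22, 3 of 13 and 1 of 19 at an unadjusted p under 0.05). With the replicate block, 4 mast-cell and basophil genes fell, Gata2 among them (-0.67, adjusted p 0.0256), 1 T-cell gene rose (Lat, 0.50, 0.00419) and 1 fell (Cd28), 1 stromal gene fell (Pecam1, -0.55, 0.0143), 1 erythroid and megakaryocyte gene rose (Pf4), and 3 natural killer and 2 eosinophil genes fell. The part of a shift between cell types in these results was not tested.

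Genes around Il2 itself were examined because the strain name marks the allele as made in cells of another mouse strain, whose flanking DNA it can carry. Of 147 tested genes within 20 Mb (megabases) of Il2 on chromosome 3 (positions from the RefSeq gene table, GRCm38.p6), 6 passed (4.08%), all lower and all within 5 Mb, where 57 genes were tested (10.5%). On the rest of the chromosome 1.38% passed. Spry1, an inhibitor of receptor tyrosine kinase signalling 0.519 Mb away, read 7.46, 7.69 and 7.64 against 6.24, 6.42 and 6.34 (-1.26 ± 0.11, SE, limma adjusted p 0.000906). The groups of Spry1 were more than 1 apart and each was tight. Cetn4, a centrin gene 0.187 Mb away, fell by 0.77 (adjusted p 0.00588), and a dimmer probe set of it gave -1.52. Ccna2 (-1.09), a cyclin of S phase and mitosis, and Plk4 (-0.55), which starts centriole assembly, belong to the mitosis list and lie 0.554 Mb before and 3.685 after Il2. Mccc1 (-0.39), of leucine breakdown, and Ankrd50 (-0.34), of endosome traffic, completed the 6. With curdlan, 6 genes of the same window passed, 5 of these and Il2 itself; Plk4 did not (adjusted p 0.0537). Spry1 passed in all 18 fits that left out an array or a pair. The call was lost in 1 fit for Cetn4, 10 for Ccna2, 6 for Plk4, 11 for Mccc1 and 7 for Ankrd50. Whether these falls come with the allele's flanking DNA was not tested.

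**Figure D4:**
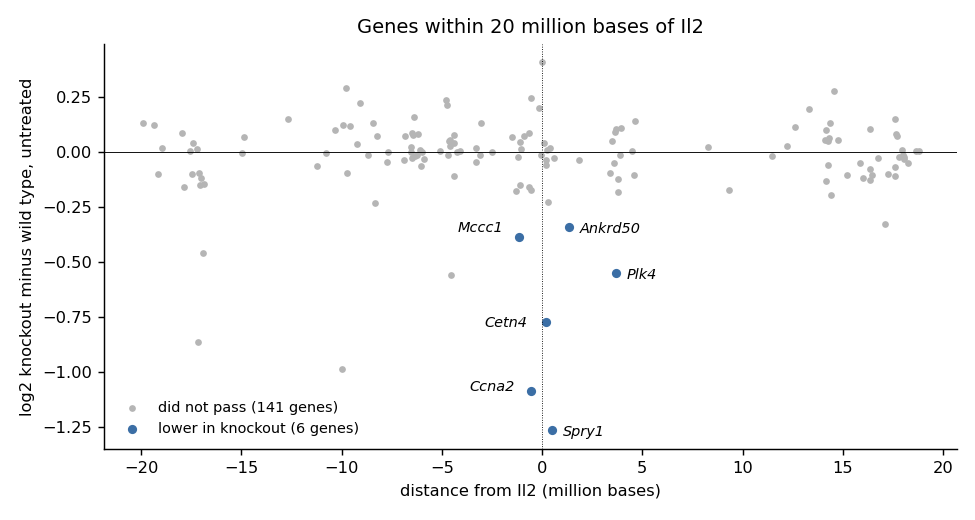
Log2 difference, knockout minus wild type, untreated (y axis), of 147 tested genes against their distance from Il2 in Mb (x axis); blue genes passed. The 6 genes that passed lie within 5 Mb on either side and are all below 0, from Ankrd50 at -0.34 to Spry1 at -1.26, while Il2 itself, at distance 0, is grey at 0.41.

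The same contrast on the 6 curdlan arrays, which share no array with the untreated contrast but whose same-numbered arrays deviated together with the untreated ones (r 0.368 to 0.604), is set beside it. It called 124 genes at the same threshold (0.622%), 21 higher and 103 lower, of which 64 were also among the 283 (51.6% of the 124, 22.6% of the 283), all in the same direction. Of the 283, 274 had the same sign with curdlan (96.8%, against 64% of all genes) and 248 were smaller in size (87.6%, against 67.3% of all genes). The 283 were chosen for their untreated differences, so smaller values on other arrays follow in part from the choice and are no test. The curdlan count was 450 with the replicate block. It was 80 without wild-type untreated array 3, 19 and 43 without curdlan-treated wild-type arrays 2 and 3, 53, 29 and 35 without curdlan-treated knockout arrays 1, 2 and 3, 299, 29 and 18 without wild-type pairs 1, 2 and 3, and 54, 19 and 42 without knockout pairs 1, 2 and 3. The 237 falls had a median of -0.83 at rest and -0.55 with curdlan, and the 46 rises 0.45 and 0.25. Scarf1 (1.04), Spry1 (-1.01), Slamf1 (-1.16), Treml4 (-1.54), Ifitm6 (-2.04), Il2ra (-0.86), Cd209a (-1.42) and Dpp4 (-1.20) passed in both. Ehf (-0.32), Cd209c (-0.66) and Phf11d (0.31) did not pass with curdlan.

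The median of the interferon-stimulated list was 0.44 at rest and 0.03 with curdlan, and Ifi205, Ifit1 and Oasl2 gave -0.08, 0.03 and 0.04 with curdlan. The mitosis list kept its sign (median -0.68, 4 of 33 lower). The test of the difference itself, the interaction of genotype and curdlan, passed for 0 genes (0%; limma, smallest adjusted p 0.357, that of Il2), and 552 genes reached an unadjusted p under 0.05. Of the 283 genes, 67 reached that unadjusted level. The interaction count was 1 without knockout untreated array 1, 2 when the first or the third wild-type array with curdlan was left out, and 3 without wild-type pair 3. For no gene named here is the genotype difference therefore shown to differ between rest and curdlan. The response to curdlan itself is a separate contrast and is not reported here.

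**Figure D5:**
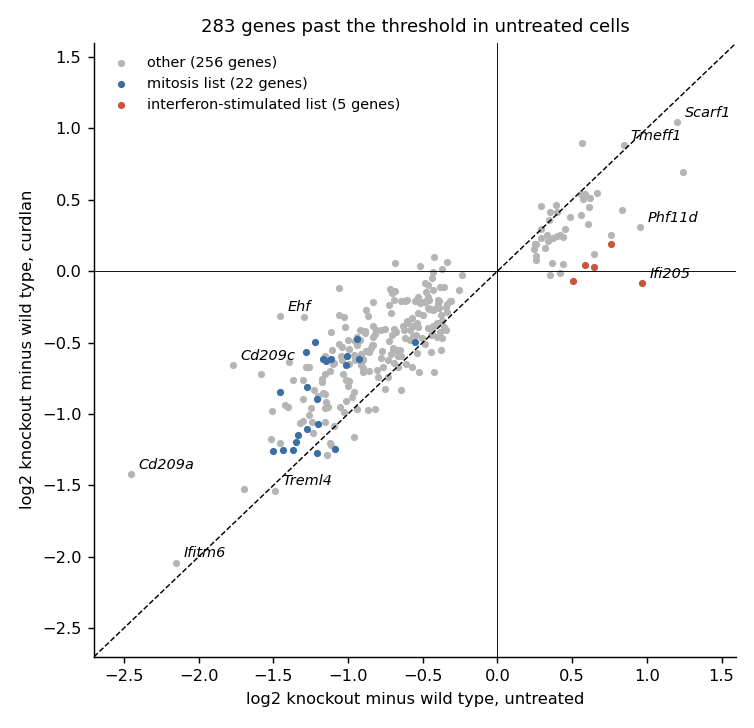
Log2 difference, knockout minus wild type, of the 283 genes that passed in untreated cells (x axis) and with curdlan (y axis); the dashed line marks equal values, and mitosis-list (blue) and interferon-list (red) genes are coloured. Most points lie between the dashed line and 0 on the y axis, and the 5 interferon-list genes lie near 0 with curdlan.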

How the data were processed

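Total RNA of 12 samples was hybridised to Affymetrix Mouse Gene 1.0 ST arrays, 100 ng per array per the labels. The deposited series matrix holds log2 values, normalised by the authors with RMA (robust multi-array average) per the submitters' processing notes, with no version given. Values ran from 2.76 to 14.04. Arrays have no read depth, and their number, 3 per group, limits the precision.

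Of 34760 probe sets, 21640 had 1 gene symbol, 1321 several and 11799 were not listed in GEO's platform annotation. Each of 19937 genes was represented by its single-symbol probe set with the highest mean over the 12 arrays. limma 3.58.1 (R 4.3.3) fitted 4 group means to 12 arrays (8 residual degrees of freedom, prior 3.52), tested two-sided, with Benjamini-Hochberg adjustment over all genes. The labels do not say that equal replicate numbers pair the genotypes, and the replicate block is an alternative that assumes it. The deviations of same-numbered untreated arrays correlated at 0.218, 0.105 and 0.254. The curdlan arrays, which the block also covers, gave 0.166, -0.134 and 0.328, and a differently numbered pair of them 0.206. Equal numbers also joined unlike sex-linked levels. Xist read 5.46 on wild-type and 12.69 on knockout untreated array 1, and 12.65 and 4.91 on arrays 3. Alternatives changed the samples, blocks, probe sets, normalisation, filters and prior; the covariate of Y-linked genes (Eif2s3y, Kdm5d and Uty) was chosen after seeing the data. The script was tested on simulated data.

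The members and the 48 gene lists (1024 of 1133 members measured) were chosen with earlier results of these data known. The text names the IL-2, IL-15, GM-CSF and Dectin-1 receptor genes, the 15 largest rises and 15 largest falls among genes that passed without overlap (predicted genes left out), up to 4 passing members of each list or, where none passed, up to 2, and passing genes near Il2. Named outside this rule, after their values were seen or as markers, were Retnla, Gm4951, Cd34, Mpo, Ms4a3, Rrm2, Rsad2, Bmf, Bcl2l11, Fas, Itgae, Irf4, Fos, Jun, Cd28, Xist, Eif2s3y and the defining cell-type markers.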

Additional observations from a re-analysis of the deposited data

Results flagged for a closer look

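Il2 moved in opposite ways in the untreated and the curdlan arrays: 0.41 (log2, knockout minus wild type) at rest and -1.48 with curdlan, with every knockout array above the wild-type arrays at rest and below them with curdlan. The test of the difference itself gave a limma adjusted p of 0.357 and an unadjusted p of 2.6e-05.

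Of the 1321 probe sets that list several gene symbols, which entered no comparison, 13 passed in a fit of all probe sets. In that fit 117 of 21640 probe sets with 1 symbol passed, 10 of them higher. All 13 were lower in the knockout, and 12 of them list histone genes, between -1.18 and -0.54. The same sets of histone symbols recur among these 12, so they are not separate results for single genes. The remaining 1, which lists Gm14719 and Ppdpf, gave -0.41.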

How the results depend on the processing

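The count of 283 genes was 70 when the 6 untreated arrays were fitted alone, 699 with the replicate block and 164 with the Y-linked level as a covariate, and ran from 52 to 447 when 1 array was left out. A pair is the untreated and curdlan array of a genotype and number. It was 608, 122 and 78 without wild-type pairs 1, 2 and 3 and 60, 9 and 199 without knockout pairs 1, 2 and 3. It was 393 with the replicate block in the 6 arrays alone, 386 with the pair as a random block, and 269 to 340 under the other normalisations, filters, probe-set rules and prior. The count of 124 with curdlan was 15 in its 6 arrays alone, 450 and 57 with the replicate block in 12 and 6 arrays, 197 among genes above the median level, 19 to 172 with 1 array left out, 299, 29 and 18 without wild-type pairs 1, 2 and 3, and 54, 19 and 42 without knockout pairs 1, 2 and 3. The interaction count was 0 in the fits that kept all 12 arrays and 0 to 2 with 1 array and 0 to 3 with a pair left out. The cause was not tested. Among the genes named by the stated rule, none that passed, in the reported fit or in an alternative, changed its sign between them. Of those that did not pass, Il15ra ran from -0.05 to 0.17, the class I gene H2-Q4 from -0.03 to 0.40 and the Y-linked gene Uty from -0.02 to 3.11. The signs of other genes were not compared over the alternatives. Of 57 named genes that passed, 19 passed when the 6 untreated arrays were fitted alone and 35 with the covariate. Without wild-type untreated array 2, 16 passed, 22 without knockout untreated array 2 and 4 without knockout pair 2. Signal near background limits genes around the lower quartile, such as Gimap5, Klrd1 and Zfp979.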
